A study of Mus musculus with 4 samples.

Results

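Integrins, cadherins, protocadherins and claudins, with the adhesion molecules Ncam1, Vcam1 and Cd24a, were followed in mouse skeletal muscle. They were chosen by name: every probe set whose single gene symbol begins with Itga, Itgb, Pcdh or Cldn, is Cdh followed by digits, or is Ncam1, Vcam1 or Cd24a. This gave 74 of the 12422 probe sets that are not controls, and they stand for 48 of 8251 genes with a name of their own. There were 12 integrin alpha chains, 8 genes named for integrin beta chains or a partner of one, 13 cadherins, 10 genes with claudin names (Cldnd1, a claudin domain protein, among them), 2 protocadherins and the 3 single molecules. Another 8 probe sets carry the names of several alpha protocadherins at once and were left out.

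The study measured total RNA on 4 arrays. Titles code 2 arrays as J (replicates 1a and 1c) and the other 2 as NJ (replicates 1a and 1d), all with the prefix Ctr and a time of 0 h. The title of the series names the neuromuscular junction, where motor nerves contact muscle fibres, but what the codes mean is not said. The sources used here give no strain, age, sex, genotype or treatment. They do not say that each array had its own animal either, so the spread between arrays may be technical.

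All 10 skeletal muscle fibre markers were bright enough to test, but their summed signal was uneven. It was 1048610 in J 1a and 188179 in J 1c, against 857128 in NJ 1a and 607500 in NJ 1d, so J 1c stood lowest. The highest value of any probe set was also lowest on J 1c, at 41086, against 238288 on J 1a, 184184 on NJ 1a and 125534 on NJ 1d. The dimmer marker Tnni2 had 10071 and 8936 in J versus 9346 and 8981 in NJ. Mylpf had 6890 and 6763 in J versus 6418 and 12750 in NJ. The fall in J 1c was thus not shared by every marker, and its cause was not tested. The deposited table holds the 1a arrays with full digits but J 1c and NJ 1d with 1 decimal, so each number format has an array of either group. Differences are therefore also given within these 2 pairs, J 1a against NJ 1a and J 1c against NJ 1d. In bulk RNA, fewer cells of a type and less RNA per cell cannot be told apart.

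Integrins are receptors made of 1 alpha and 1 beta chain that tie cells to the extracellular matrix or to other cells. In the muscle fibre the laminin receptor of alpha 7 and beta 1 links the basement membrane to the cytoskeleton, and integrins of the beta 2 family carry leukocyte adhesion. Classical cadherins bind the like molecule on the neighbouring cell and hold to actin through catenins inside. Claudins form the strands of tight junctions. Ncam1 and Vcam1 are adhesion molecules of the immunoglobulin superfamily, and Cd24a is a small glycosylated protein anchored in the membrane by a lipid.

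Signals are given as deposited, on a linear scale. Differences are J minus NJ in log2(signal + 32) once the arrays were quantile normalised, and ± gives limma's standard error (SE) with 2 arrays in each group. Adding 32 understates changes of dim genes. Of the 74 member probe sets, 53 passed the filter on low values, and they stand for 40 of the 48 genes. Where a gene had several tested probe sets, the one with the highest mean over the 4 arrays stands for it.

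No adhesion gene was called different between J and NJ. With limma and Benjamini-Hochberg adjustment over 9316 probe sets, 0 of the 53 tested members passed an adjusted p of 0.05 in either direction, against 0% of all probe sets higher and 0% lower. The smallest adjusted p of a member was 0.999. At an unadjusted p under 0.05, limma gave 1 member higher in J (1.26% of all probe sets were) and 0 lower (0.88% of all). With a term for the number format, 0 members passed the adjusted threshold, against 0.0429% of all probe sets in each direction, and the smallest adjusted p of a member was 0.561. In that fit 2 members were higher and 2 lower at an unadjusted p under 0.05, where 2.78% and 3.18% of all probe sets were. With 2 arrays a group, the smallest two-sided p that an exact permutation test allows is 0.333.

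The members were spread around zero much like the rest of the array. By the mean, 26 of the tested member probe sets were higher in J (49.3% of all were) and 27 lower. J lay wholly above NJ for 7 (13.6% of all probe sets did) and wholly below for 7 (12.8% of all). Together that is 26.4% of the members, against 26.4% of all tested probe sets. At 1 probe set per gene, 19 members were higher (49% of all genes were) and 21 lower. Their median was −0.11, against −0.01 over all 6773 genes tested. The difference exceeded 1 on the log2 scale, in either direction, for 5 of the 40 genes, or 12.5%, against 14.1% of all genes. For 42 of the 53 probe sets the SE was larger than the difference itself.

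**Figure D1:**
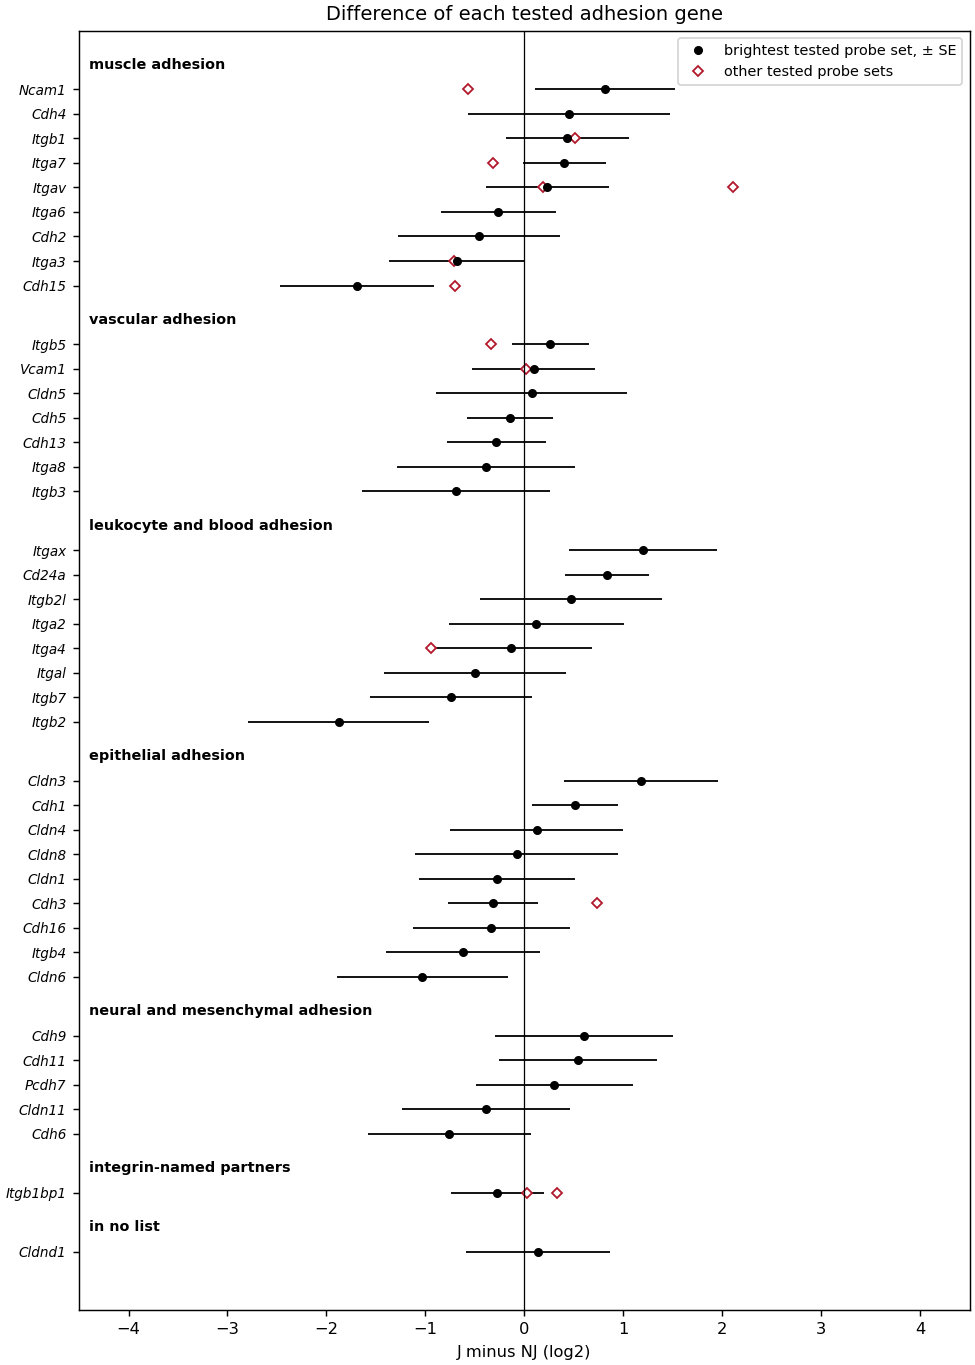
Differences of J minus NJ on the log2 scale (x axis) for the 40 tested adhesion genes (y axis), grouped by list. Black points show the brightest tested probe set with its SE from limma over 2 arrays per group, and open diamonds show a gene's other tested probe sets. Most bars cross 0. Itgb2 at −1.87 and Itgax at 1.20 are the lowest and highest of the black points. Itgb2 passed the filter on low values only through array NJ 1a.

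Of the muscle adhesion genes, receptors of muscle fibres and of their precursor cells, 9 could be tested, 1 was too dim and 3 are not named by a probe set used here. In J 5 were higher and 4 lower, and the median was 0.23. J lay wholly above NJ for 2 (Itga7, Ncam1) and wholly below for 3 (Cdh15, Itga3, Itga6), where 13.4% and 13.1% of all tested genes did so. The median was −0.19 on the deposited scale, −0.25 with median centring, −0.55 without array J 1c and −0.17 without NJ 1a, so its sign was not settled. Satellite cell markers, those of muscle stem cells, had a summed signal of 3337 and 2078 in J versus 2275 and 2899 in NJ. Of 6 such markers with a probe set 3 were tested, 2 higher and 1 lower. None of the 6 was at 0, while Myf5, Cxcr4 and Calcr were too dim to test. Their part in the result was not tested.

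Cdh15 encodes M-cadherin, a cadherin of satellite cells and developing muscle. It had signals of 114.5 in J 1a and 195.6 in J 1c, against 520.8 in NJ 1a and 548.7 in NJ 1d. Both J arrays were low and the groups did not overlap. The difference was −1.69 ± 0.78 (SE), with a 95% interval of −3.45 to 0.07, and it was negative in both pairs (−2.06 for 1a, −1.32 for J 1c and NJ 1d). A second, dimmer probe set differed by −0.70 ± 0.99, but there J 1a had the highest signal, 348.5, and J 1c the lowest, 12.2. Cdh2, the N-cadherin shared by muscle precursors, nerve and heart, had signals of 69.9 and 178 in J versus 151 and 165 in NJ, a difference of −0.45 ± 0.82. Cdh4, or R-cadherin, had 1033 in J 1a but 107 in J 1c, against 178 and 380 in NJ. Both NJ values of Cdh4 lay between those of J, and its pairs differed by 2.50 and −1.60.

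Itga7 encodes the alpha 7 chain, the main laminin receptor chain of adult muscle. At its brightest probe set it had 1760 and 3078 in J versus 1689 and 1682 in NJ. The groups did not overlap, but J 1a was close to the NJ arrays, and the difference was 0.41 ± 0.42, or 0.02 between the 1a arrays and 0.79 in the other pair. The second tested probe set gave 1069 and 1226 in J versus 1569 and 1191 in NJ, a difference of −0.32 ± 0.45. There the groups overlapped as deposited, but J lay wholly below NJ after normalisation. The 2 probe sets of Itga7 thus differed in sign.

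Itgb1 encodes the beta 1 chain, the shared partner of the alpha chains 3, 6 and 7. Its brightest probe set had 17270 and 27366 in J versus 20602 and 31879 in NJ, so J was the lower array of each pair as deposited. After quantile normalisation the difference was 0.43 ± 0.62, while on the deposited scale it was −0.24 and with median centring −0.30. A second probe set had 3383 and 4294 in J versus 3549 and 1982 in NJ, where NJ 1d alone was low (0.51 ± 0.41). No direction held across scalings for this brightest probe set of Itgb1.

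Itga3, a laminin receptor chain, had signals of 322.5 and 350.5 in J versus 606 and 451.5 in NJ. Both J arrays were lower and the difference was −0.68 ± 0.69. Its second probe set differed by −0.71 ± 0.87, where the groups overlapped and NJ 1d stood high at 502 against 155 and 176 in J and 158 in NJ 1a. Itga6, another laminin receptor chain, had 565 and 602 in J versus 759 and 593 in NJ, a difference of −0.27 ± 0.58. The J and NJ values of Itga6 overlapped as deposited but not after normalisation.

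Itgav encodes the alpha v chain, a receptor for fibronectin and vitronectin that pairs with several beta chains. Its brightest probe set had 1928 in J 1a and 8558 in J 1c, against 2905 and 4497 in NJ, with the NJ values inside the range of J (0.23 ± 0.62). A dimmer probe set had 489 and 168 in J versus 76.6 and 17.4 in NJ. Its NJ signals were under the filter level of about 117, so it passed the filter only through its J values. Both J values were higher there, and the difference of 2.11 ± 0.80, or 4.31-fold, was the one member value with an unadjusted p under 0.05 in limma (0.026, adjusted p = 0.999, rank 77 of 9316). It was 2.29 between the 1a arrays and 1.92 in the other pair, but only 0.19 ± 0.68 at the remaining probe set of Itgav, with 765 and 387 in J versus 688 and 298 in NJ. The probe sets of this gene therefore did not give one size of difference.

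Ncam1, the neural cell adhesion molecule, is present on satellite cells, Schwann cells, axons and the synaptic region of the fibre. It had 625 and 683 in J versus 250 and 493 in NJ at its brightest probe set, with no overlap, J being above NJ, and a difference of 0.81 ± 0.71. This was 0.21 without array NJ 1a, 1.42 without NJ 1d and 0.12 as the mean over its tested probe sets. At the second tested probe set J 1a was highest with 689 and J 1c lowest with 78.6, against 464 and 305 in NJ, a difference of −0.57 ± 0.93. The remaining one, too dim on average to test, had 551 in J 1a and 47.8 in J 1c, against 46.8 and 50.8 in NJ, so J 1a alone was raised there. Schwann cell markers, of which 5 of 8 had a probe set and all 5 were tested, were higher in J for 1 and lower for 4. Their summed signal was 3873 and 3488 in J versus 4751 and 2693 in NJ, with none at 0, and their part in the result was not tested.

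**Figure D2:**
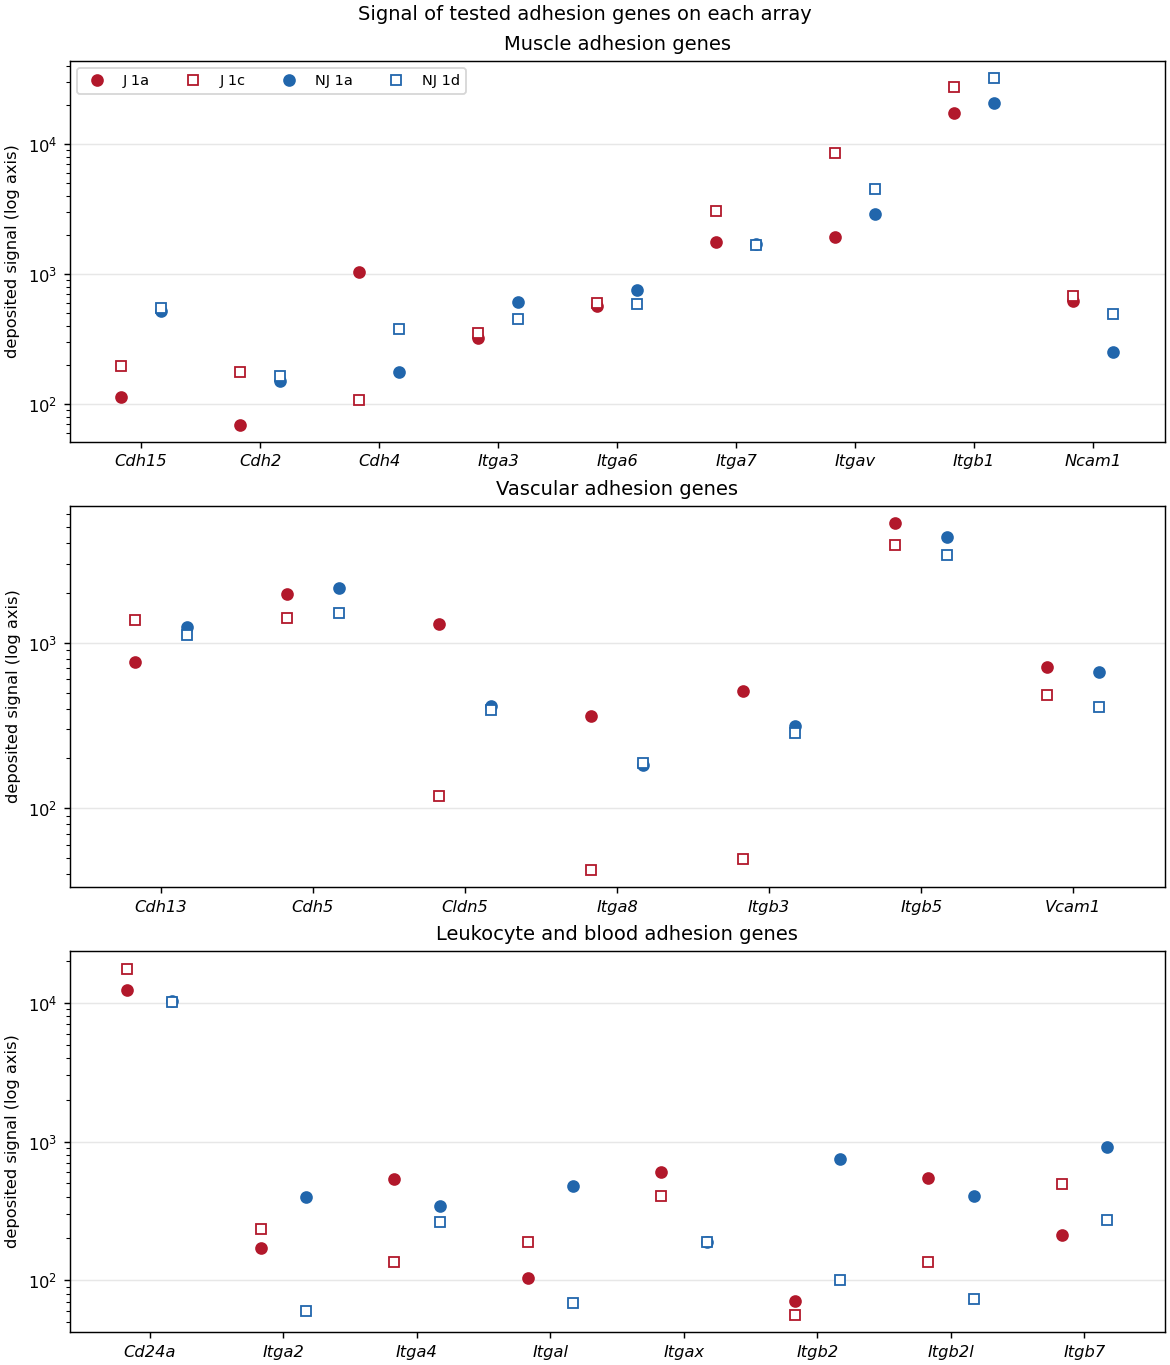
Deposited signal on a log axis (y) for each tested muscle, vascular and leukocyte or blood adhesion gene (x), at its brightest probe set. Red marks are J and blue marks NJ; filled circles are the 1a arrays and open squares are J 1c and NJ 1d. Both J marks of Cdh15 lie below both NJ marks and both J marks of Itgax lie above them, while J 1a and J 1c of Cldn5, Itga8 and Itgb3 lie on either side of the NJ marks.

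Of 8 vascular adhesion genes 7 could be tested and 1 was too dim. In J 3 were higher and 4 lower. Their median was −0.14, and the J and NJ values overlapped in all 7, where 26.5% of all tested genes did not overlap. The median was 0.54 without array J 1c and −0.42 without J 1a. Endothelial markers had a summed signal of 11309 and 8488 in J versus 10139 and 9989 in NJ. Of these markers 9 of 10 had a probe set, and 3 of the 8 tested were higher and 5 lower. None was at 0, Tek was too dim to test, and their part in the result was not tested. Smooth muscle and pericyte markers summed to 6872 and 4586 in J versus 6650 and 2188 in NJ, where NJ 1d was low, with all 6 tested of 7 listed higher in J and none at 0. Their part was not tested either.

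Cdh5 encodes VE-cadherin, the cadherin that joins endothelial cells. It had 1962 and 1406 in J versus 2145 and 1505 in NJ. The groups overlapped and the difference was small, at −0.14 ± 0.43 with a 95% interval of −1.12 to 0.83, and it was close in both pairs (−0.12 and −0.17). Itgb5, which pairs with alpha v, had 5251 and 3879 in J versus 4323 and 3403 in NJ (0.26 ± 0.39), and its other probe set differed by −0.34 ± 0.54. Vcam1, the endothelial ligand of the integrin of alpha 4 and beta 1 that is also on satellite cells, had 709.5 and 483 in J versus 667 and 410 in NJ. That difference was 0.09 ± 0.62. A second probe set differed by 0.02 ± 0.95, and one too dim to test had 132 and 88.7 in J versus 19.03 and 7.6 in NJ. Cdh13, the T-cadherin that lacks a transmembrane part, had 762 and 1366 in J versus 1250 and 1115 in NJ (−0.28 ± 0.50).

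For 3 vascular genes J 1a was the highest array and J 1c the lowest. Cldn5, the claudin of endothelial tight junctions, had 1303 in J 1a and 118 in J 1c, against 416 and 393 in NJ. Itgb3, the beta chain of platelets and growing endothelium, had 512 and 49.4 in J versus 315.5 and 283 in NJ. Itga8, an integrin chain of smooth muscle and pericytes, had 360 and 42.6 in J versus 181 and 186.5 in NJ. For each of them the NJ arrays lay close together between the J arrays, and the differences of 0.07 ± 0.97, −0.69 ± 0.95 and −0.39 ± 0.90 had opposite signs in the 2 pairs.

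Of the leukocyte and blood adhesion genes, 10 of 13 had a probe set and 8 were tested. In J 4 were higher and 4 lower, and the median was −0.01. J lay wholly above NJ for 2 (Itgax, Cd24a) and wholly below for 1 (Itgb2), where 13.4% and 13.1% of all tested genes did so. The median was 0.72 without array NJ 1a and −0.58 without NJ 1d. Leukocyte markers had a summed signal of 5033 and 3838 in J versus 3787 and 3501 in NJ, so both J sums were higher, that of J 1c by little. All 10 had a probe set, and 5 of the 8 tested were higher and 3 lower. Laptm5, the brightest of them on each array, had 2501 and 1702 in J versus 1061 and 1221 in NJ. The order of the sums rested on Laptm5, since without it the J sums would not both be higher. Fcer1g went the other way, with 185 and 43 in J versus 913 and 500.5 in NJ. Ptprc, the pan-leukocyte marker CD45, had 25.5 and 82.5 in J versus 98.1 and 149 in NJ, with both J values lower. Cd53 had 30.1 and 125 in J versus 18.0 and 31.2 in NJ. Ptprc and Cd53 were too dim to test, and none of the markers was at 0. Platelet and red cell markers, 5 of 7 with a probe set, summed to 42026 and 17279 in J versus 30922 and 29351 in NJ. All 3 tested were higher in J by the mean, and none was at 0. The part of these cells in the result was not tested.

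Itgb2 encodes the beta 2 chain, which every leukocyte integrin of the CD11 group needs to reach the cell surface. It had 71.3 and 56.4 in J versus 744 and 101 in NJ. As deposited, all signals but that of NJ 1a were under the filter level of about 117, so Itgb2 passed the filter only through NJ 1a. Both J values were lower, but NJ 1a alone was high, and the difference of −1.87 ± 0.91 (95% interval −3.93 to 0.18) was −3.07 between the 1a arrays and −0.68 in the other pair. Without NJ 1a it was −0.74. Itgax encodes the alpha X chain, CD11c, of dendritic cells and macrophages, a partner of beta 2. It had 599 and 405 in J versus 189 and 190 in NJ. Both J arrays were higher, and the difference was 1.20 ± 0.75 (95% interval −0.48 to 2.88), with 1.57 between the 1a arrays and 0.82 in the other pair. Itgal, the alpha L chain of LFA-1, also pairs with beta 2 and had 104 and 189 in J versus 476 and 68.2 in NJ, where NJ 1a was again the highest array (−0.50 ± 0.92). Itgam, the alpha M chain, was too dim to test, with 135 and 49.9 in J versus 158 and 38.1 in NJ. Itgax and Itgb2, 2 chains of one receptor, thus lay on opposite sides of zero.

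Cd24a was listed here as a molecule of red cell precursors, B cells and neutrophils. It had 12449 and 17723 in J versus 10294 and 10139 in NJ, and which cells gave this signal was not tested. The NJ arrays were nearly equal and both J arrays were higher. Its difference was 0.84 ± 0.42 (95% interval −0.11 to 1.79), with 0.27 between the 1a arrays and 1.41 in the other pair. The difference was 0.54 on the deposited scale, 0.48 with median centring, 0.38 without array J 1c and 1.30 without J 1a. Itga4, a chain for binding Vcam1 and fibronectin, had 540 and 134 in J versus 342 and 264 in NJ (−0.14 ± 0.82), with the NJ values inside the range of J. A second tested probe set of Itga4 differed by −0.95 ± 0.86, where J 1a alone was low, at 45.8. Its groups overlapped as deposited, but J lay below NJ after normalisation. Itgb7, the partner of alpha 4 on gut-homing lymphocytes, had 212 and 494 in J versus 914 and 273 in NJ, where NJ 1a was the highest array (−0.74 ± 0.82). Itgb2l, a gene like Itgb2, had 543 and 135 in J versus 404 and 72.6 in NJ (0.47 ± 0.92), with the 1a array high in each group. Itga2, the collagen receptor chain of platelets, had 169 and 234 in J versus 399.5 and 59.5 in NJ (0.12 ± 0.89), and its pairs differed by −1.16 and 1.41.

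**Figure D3:**
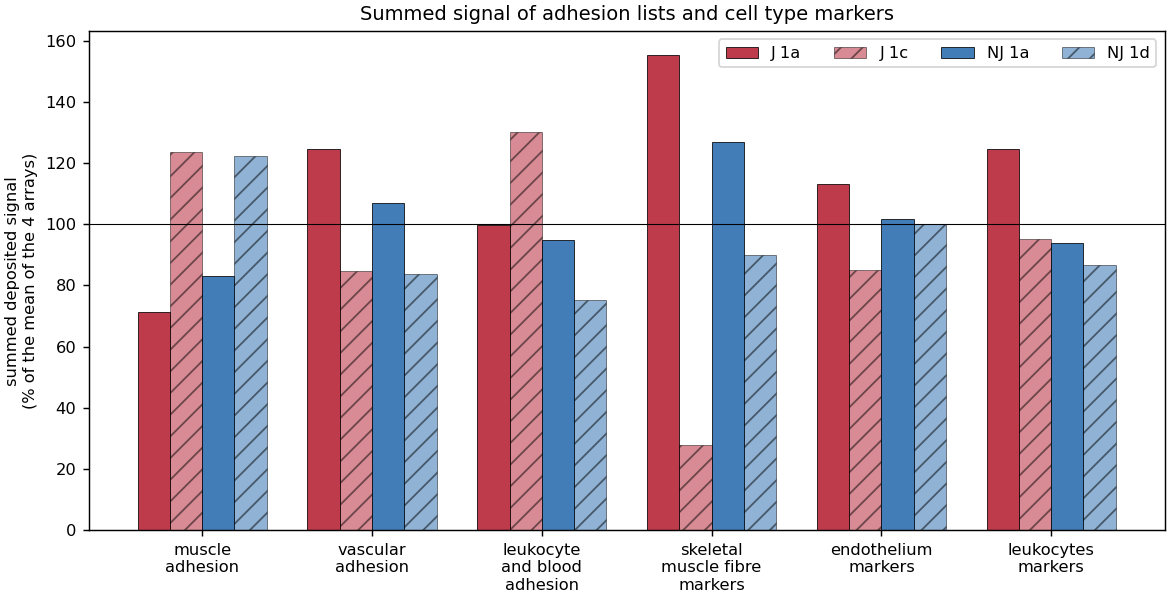
Summed deposited signal of each list on each array, as a percent of the mean of the 4 arrays (y axis), for 3 adhesion lists and the markers of 3 cell types (x axis). Bars are single arrays, J in red and NJ in blue, hatched for J 1c and NJ 1d. Muscle fibre markers stood at 27.9% in J 1c, against 155% in J 1a, 127% in NJ 1a and 89.95% in NJ 1d. The highest value of any probe set was also lowest on J 1c. Itgb1 makes up most of the muscle adhesion sum and Cd24a most of the leukocyte and blood sum.

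Among the epithelial adhesion genes, those of sheet-forming cells, 11 of 22 had a probe set and 9 were tested. In J 3 were higher and 6 lower. Wholly above NJ were 2 (Cdh1, Cldn3) and wholly below 1 (Itgb4), where 13.4% and 13.1% of all tested genes were. The median was −0.28. It was −0.49 without array J 1c, −0.14 without J 1a, 0.08 without NJ 1d and 0.10 with the filter at the median, so its sign was not settled. Cdh1, the epithelial E-cadherin, had 1489 and 1782 in J versus 1083 and 1084 in NJ. Both J values were higher and the difference was 0.51 ± 0.43, with 0.43 and 0.59 in the 2 pairs. Cldn3, a tight junction claudin, had 407 and 250 in J versus 182 and 71.9 in NJ, again with both J values higher (1.18 ± 0.78, and 1.04 and 1.31 in the pairs). Another probe set of Cldn3, too dim to test, had 28.5 and 62.3 in J versus 65.2 and 154.5 in NJ, the opposite order. Itgb4, the beta chain that pairs with alpha 6 in hemidesmosomes and on Schwann cells, had 174 and 135 in J versus 357 and 157 in NJ (−0.62 ± 0.78). The J and NJ values of Itgb4 overlapped as deposited but not after normalisation. Epithelial markers all had a probe set, 2 of 6 were tested, 1 higher and 1 lower, and their sums were 1419 and 402 in J versus 1463 and 582 in NJ. Epcam, a defining one, had 40.1 and 22.2 in J versus 21.05 and 17.7 in NJ. None was at 0, and their part in the result was not tested.

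The other tested epithelial genes (Cdh3, Cdh16, Cldn1, Cldn4, Cldn6 and Cldn8) overlapped between the groups, with differences from −1.03 for Cldn6 to 0.13 for Cldn4. Cldn6 had 44.4 and 118 in J versus 354 and 77.6 in NJ, and passed the filter on low values only through NJ 1a. Neural and mesenchymal adhesion genes, of which 5 were tested, were higher for 3 and lower for 2. They overlapped in all 5, where 26.5% of all tested genes did not overlap. Their differences ran from −0.76 ± 0.83 for Cdh6 to 0.60 ± 0.90 for Cdh9. Cdh11, the cadherin of fibroblasts and bone-forming cells, differed by 0.54 ± 0.80, with 355.5 and 128 in J versus 121 and 145 in NJ, where J 1a alone was high. Fibroblast markers, all 7 tested, were higher for 5 and lower for 2 and summed to 109179 and 43236 in J versus 60418 and 51846 in NJ. None was at 0, and their part in the result was not tested. Pcdh7, a protocadherin, differed by 0.30 ± 0.80 and Cldn11, the claudin of myelin, by −0.39 ± 0.85. Itgb1bp1, which binds the tail of beta 1 inside the cell, differed by −0.27 ± 0.47 at its brightest probe set and by 0.02 and 0.33 at the others. Cldnd1 differed by 0.14 ± 0.73.

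Every probe set of 8 member genes was too dim to test (Itga5, Itgae, Itgam, Cdh8, Cdh10, Cldn2, Cldn7 and Pcdh12). Of these, Cldn2 had 231 and 127 in J versus 79.0 and 68.1 in NJ, with both J values higher. Itga5, the fibronectin receptor chain, had 48.4 and 18.4 in J versus 38.7 and 21.7 in NJ, and Pcdh12, an endothelial protocadherin, had 76.0 and 82.8 in J versus 88.7 and 61.4 in NJ. Of the 11 genes with several tested probe sets, 5 (Itga7, Ncam1, Itgb5, Cdh3 and Itgb1bp1) had probe sets on both sides of zero.

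Setting the pairs of arrays side by side, 10 of the 40 tested genes were higher in J in both and 9 lower in both. That makes 47.5% with the same sign, against 49.5% of all tested genes. Cdh15 and Itgb2 were lower by more than 0.5 in both pairs, and Itgax and Cldn3 higher by more than 0.5 in both. Of these, Itgb2 passed the filter on low values only through NJ 1a, so its agreement between pairs adds no support. Cdh4, Cldn5, Itga4, Itga8, Itgb3 and Cldn8 were higher by more than 0.5 between the 1a arrays and lower by more than 0.5 in the other pair. The reverse was seen for Itga2, Itgal, Itgav, Itgb7 and Cldn11.

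**Figure D4:**
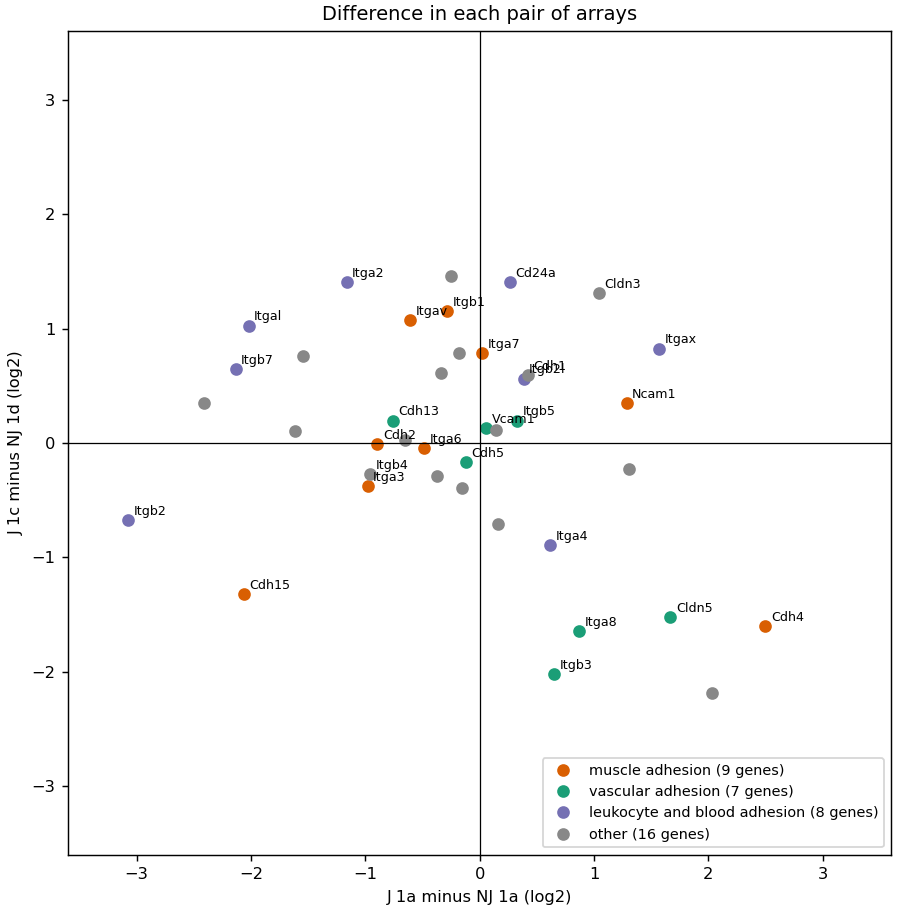
Difference of J 1a minus NJ 1a (x axis) against J 1c minus NJ 1d (y axis), both on the log2 scale, for the 40 tested adhesion genes, each point 1 gene at its brightest probe set. Colours give the lists. Cdh15 and Itgb2 lie lower left, Itgax and Cldn3 upper right, and 21 genes lie in the quadrants of opposite sign. Only array NJ 1a brought Itgb2 past the filter on low values.

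Partner genes inside and beside the cell were taken from lists, which were drawn up with earlier results of these data known. In limma without the number-format term 0 of them passed the adjusted threshold, against 0% of all probe sets in each direction. With that term, which leaves 1 degree of freedom, 1 passed (Cadm1), against 0.0429% of all probe sets in each direction. Of 21 genes that link integrins to the cytoskeleton or travel with them, 14 were tested. In J 4 were higher and 10 lower, and the median was −0.32 (0.13 between the 1a arrays and −0.37 in the other pair). Without array J 1c it was −0.015, with 7 genes higher and 7 lower, and without NJ 1d −0.049. Those with the smallest unadjusted p were Zyx, the focal adhesion protein zyxin, at −1.87 ± 0.83, the tetraspanin Cd81 at 0.89 ± 0.42 and the kinase Src at −1.67 ± 0.78. Zyx had 89.2 and 82.8 in J versus 677 and 184 in NJ, and Src had 132 and 357 in J versus 886 and 574 in NJ, so NJ 1a was the highest array for both. The J signals of Zyx were under the filter level of about 117, so Zyx passed the filter only through its NJ values. Cd81 had 2259 and 1908 in J versus 1100 and 1078 in NJ, with both J values higher.

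Of 12 catenins and nectins, 8 were tested. In J 3 were higher and 5 lower (median −0.15, or 0.12 without array J 1a). Ctnnd2, a neural delta catenin, differed by 0.78 ± 0.59, alpha catenin Ctnna1 by 0.68 ± 0.59 and Jup, or plakoglobin, by −0.91 ± 0.86. Of 29 other adhesion receptors, 14 were tested. In J 6 were higher and 8 lower (median −0.14, or 0.30 without array J 1c and −0.58 without NJ 1d). Cadm1, a synaptic adhesion molecule, had 3586 and 3367 in J versus 605 and 629 in NJ. Both J arrays were higher, and the difference of 2.43 ± 0.42, the smallest p of that list, was 2.64 between the 1a arrays and 2.21 in the other pair. Its adjusted p in limma was 0.9994, and 0.0012 with the number-format term. That fit also gave the muscle fibre marker Tnnc2 an adjusted p of 0.017 in limma. The groups of Tnnc2 overlapped, however, and its pairs differed by −0.075 and −4.28, with J 1c alone at 1301. In the list of receptors Cadm1 was followed by the mucosal addressin Madcam1 at −0.98 ± 0.65 and the endothelial molecule Mcam at −0.88 ± 0.65. Of 6 tight junction proteins beside the claudins, 2 were tested and both were lower by the mean, Tjp1 at −1.44 ± 1.15 and occludin (Ocln) at −0.80 ± 0.95. Tjp1 had 36.0 in J 1a, far below 818 in J 1c and 528 and 619 in NJ.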

How the data were processed

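Deposited values were 1 linear intensity per probe set and array. The sources used here name neither the software nor the algorithm behind them. After trimming 2% at each end, column means lay between 800.5 and 800.6, which shows scaling to a common level. From the 12488 probe sets, 66 controls were left out of the tests. Names came from the platform's gene table: 10833 probe sets had 1 symbol, 396 several and 1193 none here. All 74 members had a RefSeq entry (GRCm38.p6) under the same symbol.

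Values were taken as log2(intensity + 32) and quantile normalised, and the 9316 probe sets with a mean at or above the 25th percentile (about 117 in signal) were tested with limma 3.58.1 in R 4.3.3 (eBayes, variance prior with a trend on intensity, 2 degrees of freedom left), checked on simulated data. Overlap of groups was judged on the normalised scale. Nothing was adjusted over the members alone, and lists are described by counts and medians. The number of arrays limits the precision. Members, lists and alternatives were chosen with earlier results of these data known.

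Named in full were the tested members of the muscle, vascular and leukocyte lists, up to 8 other members per direction whose groups did not overlap, and 3 genes per partner list. Other members served as examples. Alternatives were the deposited scale, median centring, pseudocounts of 1 and 100, other filters, no trend, a number-format term, each array left out, and the mean over a gene's probe sets. Figures were drawn with matplotlib 3.10.9.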

Additional observations from a re-analysis of the deposited data

How the results depend on the processing

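No member passed the test under any alternative that gave one; the mean over a gene's probe sets gave values without a test. Over all probe sets, 8 passed with the number-format term (limma), and 0 did in the other settings tested. No paired analysis was possible because the groups share only the replicate label 1a; the number-format term pairs the arrays by format, not by label. The median of the muscle list, 0.23, was −0.19 without quantile normalisation, −0.25 when arrays were centred on their medians, 0.10 with no filter, 0.41 with the filter at the median and 0.045 with the mean over a gene's probe sets, and ran from −0.55 to 0.38 with each array left out. Leaving out each array moved the vascular median between −0.42 and 0.54 and the leukocyte and blood median between −0.58 and 0.72. With the filter at the median, which tests fewer genes, the leukocyte and blood median was 0.84, 12 members were higher and 7 lower, and no neural and mesenchymal gene was left.

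Among single genes, Itgb1 turned to −0.24 without quantile normalisation and −0.30 when centred on medians, Cldn5 to −0.025 when centred on medians and, with the mean over their probe sets, Itgb5 to −0.037, Itgb1bp1 to 0.027 and Cdh3 to 0.21. With each array left out, signs changed for Itga2 (−0.80 to 1.04), Itga4 (−0.89 to 0.61), Itgal (−1.49 to 0.50), Itgb2l (−0.37 to 1.31), Cdh2 (−1.15 to 0.24), Cdh4 (−0.94 to 1.83), Itgav (−0.85 to 1.31), Itgb1 (−0.55 to 1.42), Cdh13 (−0.70 to 0.13), Cdh5 (−0.42 to 0.14), Cldn5 (−1.42 to 1.56), Itga8 (−1.42 to 0.65), Itgb3 (−1.92 to 0.54), Itgb5 (−0.037 to 0.56), Vcam1 (−0.13 to 0.32), Cdh9 (−0.46 to 1.67), Cdh16 (−0.79 to 0.12), Cldn1 (−0.76 to 0.21), Cldn4 (−0.54 to 0.79), Cldn8 (−1.18 to 1.03), Cldn11 (−1.16 to 0.37), Cldnd1 (−0.66 to 0.93), Itgb1bp1 (−0.57 to 0.021) and Pcdh7 (−0.21 to 0.82). The cause was not tested. With 2 arrays per group, or 1 where an array was left out, the lone array is taken to vary like the rest.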
